A study of Caenorhabditis elegans with 4 samples.

Results

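The peaks described here are the MDL-1::GFP binding regions in the centre of chromosome V of Caenorhabditis elegans. They were taken by position alone: peaks of the combined list on V whose midpoint lay from base 5897000 to base 16550000 (WormBase WS180), the low-recombination centre. This gave 1099 of the 9533 peaks of the list, or 11.5%, and 1099 of the 1846 peaks of chromosome V. The list came from chromatin immunoprecipitation and sequencing (ChIP-seq) of hermaphrodite larvae at the fed L1 stage, kept at 20 °C. It rests on 2 ChIP libraries, recovered with a goat antibody against GFP, and 2 libraries of input DNA, the unselected chromatin they are set against. Both groups came from strain OP106, with the genotype unc-119 (ed3) III and the integrated transgene wgIs106, which carries mdl-1 fused to TY1, EGFP and FLAG tags and a working copy of unc-119. The transgene was introduced by bombardment and the genotype names no mutation of mdl-1 itself, so worms of both groups may also make untagged MDL-1.

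MDL-1 is the worm relative of the Mad proteins, basic helix-loop-helix leucine zipper transcription factors that pair with a Max-like partner, bind E-box elements and in mammals oppose Myc. On C. elegans autosomes the central part recombines rarely and is rich in conserved and essential genes. The arms recombine more and hold more repeats, and those of V carry large families of chemoreceptor genes. The positions below are not assigned to genes, because the gene table at hand is of another build, and for the same reason no genomic sequence is shown.

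The list gives 1 value per peak, the q-value of the peak caller, and no value per library. The term strength stands for -log10 of that q-value, read from the authors' deposited table, so a stronger peak has a smaller q-value. Sequencing depth is unknown, no value has a replicate error, and the intervals reflect counting error alone, with each peak counted as an independent event. The V centre was compared with the centres of the other autosomes, at about 3.9 to 11 Mb on I, 4.9 to 12 Mb on II, 3.7 to 10.3 Mb on III and 3.9 to 13 Mb on IV. With 1 centre against 4, an exact permutation of the chromosome labels cannot give a p below 0.2, so no difference from the other centres can pass a threshold of 0.05, and such differences stand here as descriptions.

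The V centre held 103 peaks per Mb over its 10.653 Mb (95% exact Poisson interval 97.2 to 109). Its density was near that of the IV centre, at 101 peaks per Mb (94.4 to 108), and lower than that of the I centre at 113 (106 to 121). The centres of II and III were denser, with 138 peaks per Mb each (129 to 147 in both). Against all 4 of them pooled, at 121 peaks per Mb, the V centre had a ratio of 0.85 (exact interval 0.80 to 0.91). The ratio was 1.02 against IV (0.94 to 1.12) and 0.75 against II (0.69 to 0.82), so the V centre was less dense than the pooled centres but not than IV. The 4 other centres averaged 122 ± 18.5 peaks per Mb (SD, n = 4 centres), and the V centre ranked above IV alone (exact permutation of chromosome labels, two-sided p = 0.8). Its peaks covered 390439 bases, or 3.67% of the centre, against 3.50% on IV and 4.05 to 4.59% on I, II and III.

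Peaks were denser in the V centre than on the V arms. The centre had 103 peaks per Mb and the arms 72.8 (67.7 to 78.2), a ratio of 1.42. The left arm held 77.6 peaks per Mb and the right arm 66.4. The same ratio was 1.45 on II, 1.25 on I, 1.25 on III and 1.20 on IV, so it was above 1 on all 5 autosomes (exact two-sided sign-flip test over autosomes, p = 0.063, the smallest that 5 autosomes allow). Centre peaks of V were also wider and stronger than its arm peaks, with median widths of 290 bp in the centre and 258 bp on the arms and median strengths of 4.98 in the centre and 4.33 on the arms. Both differences had the same sign on all 5 autosomes, which again gave p = 0.063 in the exact sign-flip test, for each.

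Density was far from even along the V centre: a dense stretch at its left border was followed by a thin one, a long crowded middle, and a thin stretch before the right border. Windows of 500 kb were laid from the left border. The first, from 5897000 to 6397000, held the most, 81 peaks (95% exact Poisson interval 64.3 to 100.7), and the second, from 6397000 to 6897000, held 68. The third, from 6897000 to 7397000, held only 28 (18.6 to 40.5). Counts then lay between 39 and 65 for the next 8 windows and reached 75 (59 to 94) in the window from 11397000 to 11897000. That window also contains the strongest peak of the whole list.

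Beyond it the counts ran from 57 to 64 in the next 3 windows and were 51, 35 and 58 in the 3 after those. From 14897000 on they were low up to the border: 28, 31 and 27 peaks in the last 3 full windows and 4 in the remaining 0.153 Mb. The sparsest full window, with 27 peaks (17.8 to 39.3), ran from 15897000 to 16397000. The thin stretch therefore began 1.653 Mb inside the right border of the recombination domain. Up to the border it held 54.4 peaks per Mb, against 107.5 in the 8 Mb before it and 149 in the first 1 Mb. This was below the 72.8 of both V arms together, but low density went on into the right arm. The arm windows up to 12.5 Mb from the left border of the centre held 57.6, 16, 30 and 36 peaks per Mb, and the next held 86. The 3 stretches of the centre were divided by the counts seen, so their densities, and the spacing and grouping that go with density, are descriptions.

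**Figure D1:**
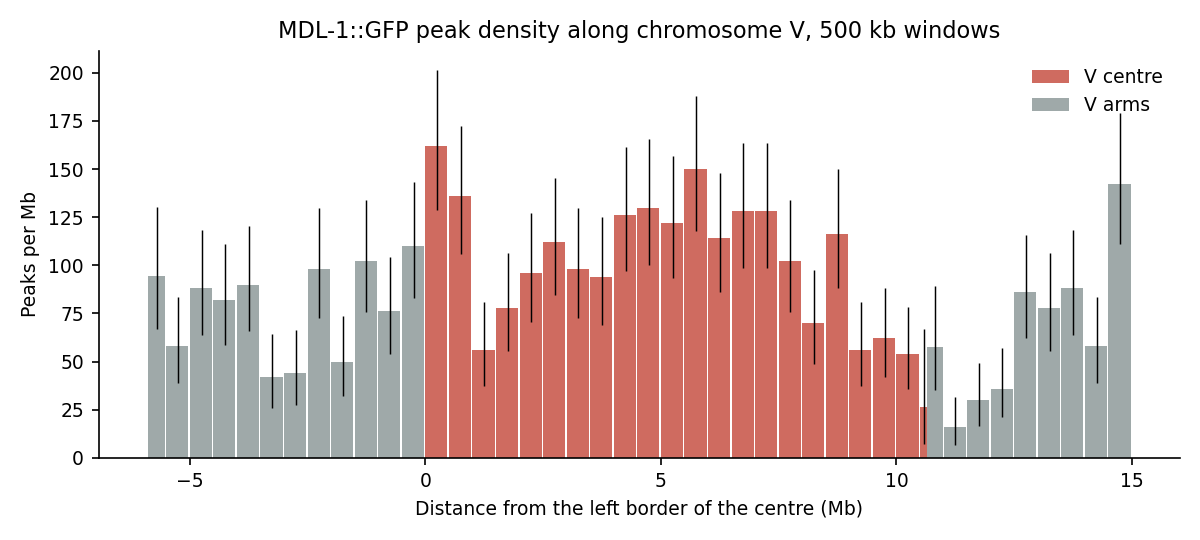
Peaks per Mb in 500 kb windows of chromosome V against the distance from the left border of the centre in Mb. Bars of the V centre are red and bars of the arms grey, lines are 95% exact Poisson intervals, and windows shorter than 0.1 Mb are left out. The first 2 red windows stand at 162 and 136 peaks per Mb, and the last 3 full ones between 54 and 62.

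This unevenness was larger than in the other 4 centres. Over 21 full windows the V centre averaged 52.1 ± 16 peaks per 500 kb (SD), with a lowest count of 27, a median of 56 and a highest of 81. The others had 13 to 18 full windows, so the longer V centre had more chances of an extreme count. The highest count was not extreme, since the fullest windows of the other centres held 68 on IV, 70 on I and 90 on both II and III (exact permutation of chromosome labels, p = 1), whereas their lowest windows held 34 to 54 (p = 0.2 in the same exact test). Its SD was 30.6% of the mean, against 12.5% on III, 14.6% on II, 15.5% on IV and 16.2% on I (exact permutation of chromosome labels, two-sided p = 0.2, the smallest possible). The ratio of variance to mean was 4.88 in the V centre and 1.08 to 1.52 in the others. In windows of 50 kb the ratio was 2.93 in the V centre and 1.63 to 1.87 in the others, and 12 of 213 windows on V had no peak (5.63%), against 0.76 to 2.76% in the other centres.

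**Figure D2:**
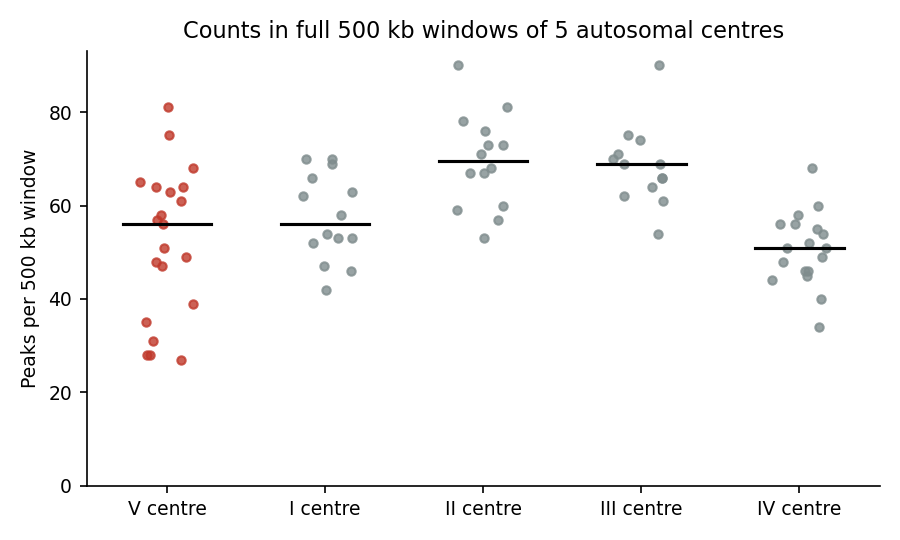
Peaks per full 500 kb window in the centres of V, I, II, III and IV; each dot is 1 window and the black line the median. The 21 windows of V (red) reach from 27 to 81; the lowest windows of the other centres lie at 34 to 54 and their highest at 68 to 90.

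The right end of the V centre contributed more to the spread than the left, and what lay between them was still the least even. With the first 1 Mb left out the SD was 29.6% of the mean, without the part from 9 Mb on it was 24.3%, and without either end 23.0%. The last value is still above the 16.2% of the highest other centre, though only V was trimmed, at ends chosen from its own counts. Among strong and among weak peaks the spread was also highest on V, but by smaller margins. Counts of peaks with a strength over 10 varied by 35.8% of their mean over the V windows, against 23.0 to 32.1% in the other centres, and counts of peaks with a strength under 3 by 41.6%, against 22.4 to 34.8%. These counts are small, so counting error makes up more of their spread, and it was not taken out.

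Densities next to the borders were compared in the same way. The first 1 Mb inside the left border held 149 peaks and the last 1 Mb of the left arm 93. Relative to the rest of its own centre, the first 1 Mb was 1.51 times as dense on V and 0.86 to 1.15 times on the other autosomes. At the right border the last 1 Mb inside held 54 peaks and the first 1 Mb of the right arm 30. Relative to the rest of its centre it was 0.50 times as dense on V and 0.86 to 1.14 times on the others. Relative to the rest of its centre, V was at the extreme of the 5 at both borders (exact permutation of chromosome labels, p = 0.2 for each, the smallest possible), also with 0.5 or 1.5 Mb in place of 1 Mb. The contrast of inside with outside was not so: V had the largest ratio with 1 Mb at both borders, but with 1.5 Mb the ratio was 1.23 on V and 1.51 on II at the left border, and 1.58 on V and 1.85 on I at the right. With 0.5 Mb at the right border it was 1.14 on V, below 2.33 on I and 1.40 on II. The nearest peaks on either side of the left border ranged from weak to strong: the 3 just inside it, at 20.9 to 66.3 kb, had strengths of 16.2, 10.3 and 2.40, and the 3 just outside, at 45.0 to 52.2 kb, had strengths of 6.69, 6.28 and 195. At the right border the 3 just inside had strengths of 20.1, 2.06 and 3.89 and the 3 just outside 12.5, 4.89 and 4.59.

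Long stretches without a peak were common. The V centre had 21 gaps over 50 kb, which took up 15.6% of its length. There were 16 such gaps on IV (12.1% of its centre), 8 on I (7.44%), 6 on II (4.99%) and 5 on III (4.26%). With a cutoff of 20 kb V and IV were alike, as such gaps took up 51.8% and 51.1% of their centres. The shares were 45.8% on I, 37.8% on II and 35.8% on III. The longest empty stretch, 143323 bp from 7248890 to 7392212, lay in the thin part after the dense left end. The next was 132359 bp from 8802643 to 8935001. These were 2 of only 3 gaps over 100 kb in the 5 centres, the remaining one being on IV. The following 3 on V were shorter: 94801 bp from 15191283 to 15286083, 93453 bp from 7587977 to 7681429 and 92617 bp from 16401853 to 16494469. Of these 5 stretches, 1 lay in the third window and 1 in the fourth, which held 28 and 39 peaks, and 2 lay in the thin part on the right.

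At fine scale the densest 50 kb window held 25 peaks, from 6197000 to 6247000, where the median window held 4. No 50 kb window of the other centres held more than 19, though V had more such windows, 213 against 132 to 181. Of the 25 peaks, 10 had a strength over 10. The next densest windows each held 19 peaks, from 11047000 to 11097000 and from 13347000 to 13397000, with 5 and 4 peaks over a strength of 10. The window from 9997000 to 10047000 held 17 and that from 10847000 to 10897000 held 16, of which 8 were over 10. Over all V centre peaks 27.5% exceeded 10, and whether single windows differ in this was not tested.

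Neighbours in the V centre were typically a few kb apart. The median gap was 3838 bp (95% interval 3234 to 4588), with quartiles of 1027 and 11512 bp, and the smallest gap was 201 bp. The smallest gaps of the other centres were alike, at 200 to 207 bp, so no centre held a gap under 200 bp. Whether closer peaks were joined in the calling, which would bear on all counts of peaks, gaps and groups, was not tested. The median gaps of the other centres ran from 3331 bp on II to 4236.5 bp on IV, and V lay among them (exact permutation of chromosome labels, p = 1). Gaps of up to 500 bp made up 11.3% of all gaps on V and 8.53 to 12.5% in the other centres. Gaps of 2 to 10 kb made up 33.3% on V, near the 32.2% of IV and below the 37.4 to 40.7% of I, II and III. In the 3 stretches divided by density, the median gap was 1534.5 bp in the first 1 Mb, 3894 bp in the next 8 Mb and 9827 bp in the last part.

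**Figure D3:**
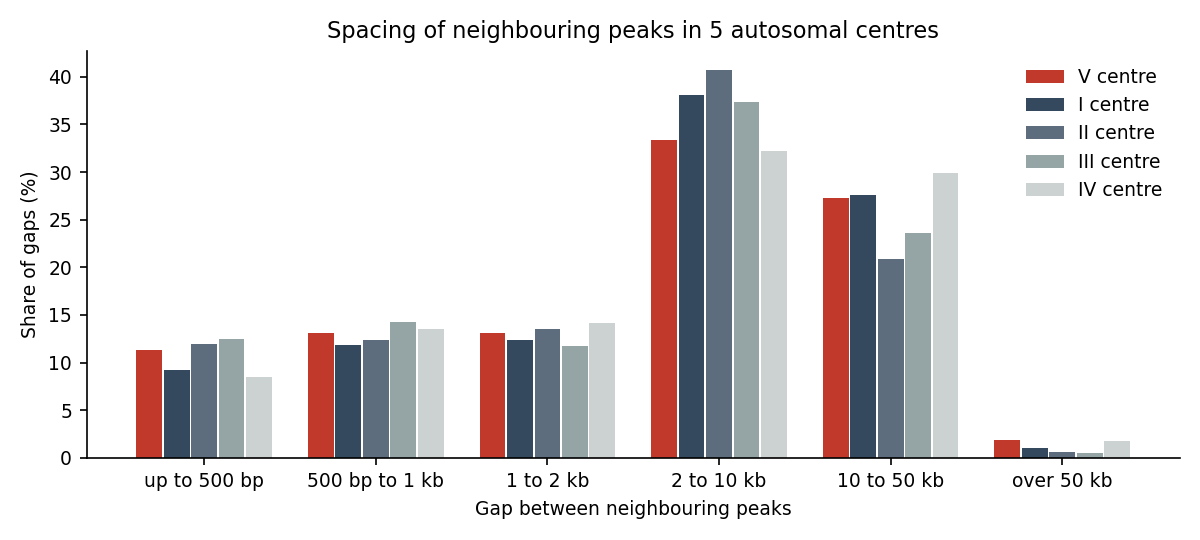
Share of gaps between neighbouring peaks, in %, by gap length in the centres of V (red), I, II, III and IV. The 5 centres have similar shares up to 2 kb, at 8.53 to 14.3% per class, and V and IV have the lowest shares from 2 to 10 kb.

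A neighbour within 1 kb was found for 428 of the 1099 peaks, or 38.9% (exact binomial interval 36.0 to 41.9%). The other centres had 36.2 to 43.6% (exact permutation of chromosome labels, p = 1). On the V arms the share was 28.1%, and it was higher in the centre than on the arms of all 5 autosomes (exact sign-flip p = 0.063). In the same stretches it was 60.4%, 37.4% and 17.8%, an order that their division by density already favours. At the other extreme, 124 peaks (11.3%) had no neighbour within 10 kb. Their median strength was 4.24 (3.64 to 4.99) and their median width 247 bp, below the 4.98 and 290 bp of all V centre peaks, while 33 of them (26.6%) had a strength over 10, against 27.5% of all.

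Chained by gaps of at most 1 kb, the V centre peaks formed 109 pairs, 24 groups of 3 and 27 groups of 4 or more, and 671 peaks stood alone. The 27 large groups held 138 peaks, or 12.6% of all. This share was 10.4% on III, 9.86% on II, 6.12% on IV and 5.29% on I. Per Mb the V centre had 2.53 large groups (exact Poisson interval 1.67 to 3.69), close to II with 2.80 and III with 2.87. This was about 2-fold the number on I (1.25, interval 0.57 to 2.38) and IV (1.32, interval 0.68 to 2.31), though both intervals overlap that of V. Its peak density was thus near that of IV and its groups per Mb near those of the densest centres, though the exact permutation of chromosome labels gave p = 1 for groups per Mb. Of the 27 groups, 7 lay in the first 1 Mb, 20 in the next 8 Mb and none (0) in the last 1.653 Mb. The number depends on the chaining distance and on the weaker peaks: it was 9 with gaps of at most 500 bp, 48 with 2 kb, 8 after peaks within 500 bp were merged and 8 among peaks with a strength over 5. These alternatives were computed for the V centre alone, so whether its contrast with I and IV holds under them was not tested.

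Peaks in large groups were stronger and wider than single ones. In groups of 4 or more the median strength was 7.11 (95% interval 6.06 to 10.7) and the median width 389.5 bp (342 to 468), against 4.36 (3.98 to 4.88) and 264 bp (253 to 278) for single peaks. The difference in strength was 2.75 in the V centre and positive in all 5 centres, where the other 4 had 0.98 to 1.81 (exact sign-flip p = 0.063 over the 5 centres, the smallest possible). Median strength did not rise steadily with group size, at 5.63 in pairs and 4.97 in groups of 3. The intervals count the 138 members as independent, though they lie in only 27 groups. The strongest peak exceeded 10 in 25 of the 27 groups and 100 in 4 of them, and its median was 45.2. This is a maximum over 4 to 12 peaks, where 27.5% of all V centre peaks exceeded 10, so it says little of grouping itself. Weak peaks were present too, and 28 of the 138 members (20.3%) had a strength under 3, against 31.0% of single peaks.

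The largest group had 12 peaks over 12431 bp, on V from 6220884 to 6233314, inside the densest 50 kb window. Read along the chromosome, the first 5 peaks had strengths of 2.59, 4.25, 6.37, 3.29 and 2.27. The sixth, from 6224104 to 6225336, reached 123, the seventh only 3.81, the eighth, from 6226491 to 6228863, 134 and the ninth, from 6229084 to 6230035, 66.9. The last 3 had strengths of 6.43, 10.9 and 2.41. Strength was thus concentrated in 3 of 12 members near the middle, with peaks of 10.9 or less on both sides and gaps of 213 to 848 bp throughout. The widths ran from 70 to 2373 bp, and the peaks covered 57.6% of the group.

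The second largest group, of 11 peaks over 16242 bp from 10711745 to 10727986, had a similar layout with more strong members. Its first 3 peaks had strengths of 7.93, 5.32 and 6.05. The next 4, from 10715247 to 10723774, had strengths of 109, 83.1, 127 and 69.4 and widths of 1024, 1349, 3009 and 1651 bp. The last 4 had strengths of 8.12, 22.0, 22.0 and 5.27. All 11 lay above 5, the median was 22.0, and the peaks covered 67.5% of the group, the largest share among the groups of 6 or more.

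**Figure D4:**
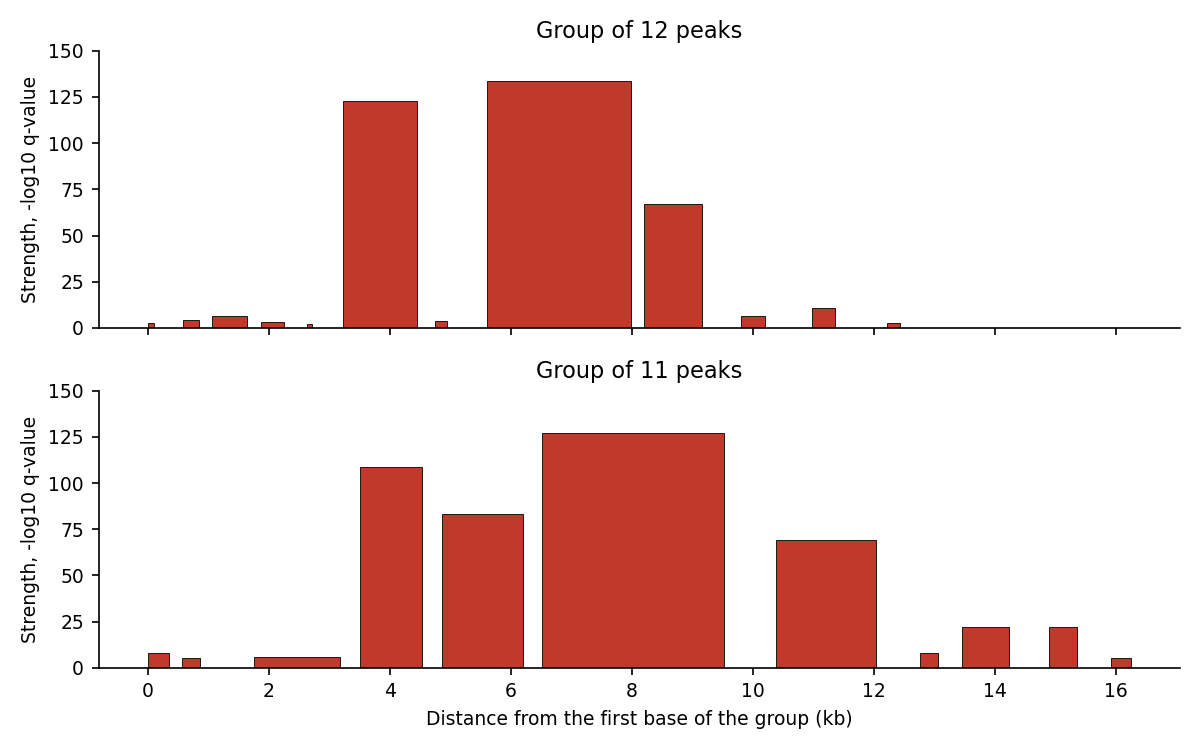
The groups of 12 and 11 peaks, each bar spanning 1 peak; the horizontal axis is the distance from the first base of the group in kb, and the height is the strength (-log10 q-value, authors' deposited table). In each group 3 or 4 neighbouring wide peaks reach 66.9 to 134, with peaks of 22.0 or less on both sides, and 1 peak of 3.81 stands between the strong ones of the upper group.

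The other 4 groups of 6 or more began 5.63 to 7.47 Mb from the left border. The group of 6 from 11528691 to 11535926 held the strongest member of them all, at 139, after 3 others, with strengths of 4.92, 7.54 and 37.2 before it and 20.6 and 7.15 after it. The group of 6 from 11818582 to 11824411 had a pair of members above 10, at 30.2 and 30.5, the second of them at its right end. Of the groups of 7, that from 12295097 to 12301125 had its strongest peak, of 38.7, at its right end. That from 13369729 to 13376137 had 1 member above 10, of 23.9, after 2 weaker ones. The strongest peak was therefore inside the group in 4 of these 6 and at the right end in 2.

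Strength in the V centre had a median of 4.98 (95% interval 4.60 to 5.45), with quartiles of 2.94 and 10.7. The other centres had medians of 4.86 on IV, 5.20 on II, 5.59 on I and 6.03 on III, averaging 5.42 ± 0.50 (SD, n = 4 centres; exact permutation of chromosome labels, p = 0.6). A strength over 10 was reached by 302 peaks (27.5%), or 28.3 per Mb (25.2 to 31.7), and a strength under 3 by 294 (26.8%). Over 10, the V centre had about as many peaks per Mb as IV (26.7) and fewer than I (33.4), II (39.1) and III (44.4). Of the 100 strongest peaks of the list 13 lay in the V centre, and of the 1000 strongest 112 (11.2%), close to its 11.5% share of all peaks.

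The strongest peak of the list lay here, on V from 11887695 to 11889942. It was 2248 bp wide with a strength of 238, and its nearest neighbour was 1326 bp away, so it stood outside every group. The second strongest member, from 13657316 to 13659554, had a strength of 206 over 2239 bp and belonged to a group of 4. The next, of 139, was in the group of 6 described above. The one after it, of 136, from 15566079 to 15570069, stood alone in the thin stretch on the right. It was the widest member of all, at 3991 bp.

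Of the remaining 6 of the 10 strongest, those with strengths of 134, 127, 123 and 109, all belonged to the groups of 12 and 11. The peak from 9730808 to 9731646 had a strength of 118 and belonged to a group of 3, and that from 9789570 to 9790267 had a strength of 107.5 and stood alone. Both were also the narrowest of the 10, at 839 and 698 bp. In all, 11 members exceeded a strength of 100, and 7 of these had a neighbour within 1 kb.

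Among the 5 widest members, 3 were also among the 10 strongest. The second widest, from 14685602 to 14688920, spanned 3319 bp with a strength of only 52.9, and the one from 13787515 to 13789890, spanned 2376 bp with a strength of 70.7. The members of 3009 and 2373 bp were the strongest members of the groups of 11 and 12. A width over 1000 bp was found for 36 members, or 3.28%, against 2.21 to 3.07% in the other centres. They were 13.8% of the 260 such peaks of the list, where the V centre held 11.5% of all peaks. Of the 36, 25 had a neighbour within 1 kb (69.4%, against 38.9% of all V centre peaks).

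The median width in the V centre was 290 bp (95% interval 278 to 301), with quartiles at 200 and 425 bp. The narrowest member had 2 bp. Median widths were 302 bp on I, 289 bp on IV, 267 bp on III and 254 bp on II, so V lay second of the 5 (exact permutation of chromosome labels, p = 0.8). Peaks narrower than 200 bp made up 24.7% of the V centre, 33.0% of the II centre and 19.9% of the I centre. Per Mb, the V centre had fewer of them than II (25.4 against 45.5) but slightly more peaks of 400 up to 800 bp (24.1 against 22.3), so its lower density relative to II lay in peaks under 400 bp and over 800 bp.

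Width and strength rose together (Spearman's rho 0.79 across the 1099 peaks, which come from 1 list and are not independent replicates). The same held in the other centres, from 0.75 on I to 0.86 on III. Members narrower than 100 bp, 97 in number, had strengths of at most 4.02. None of the 302 members with a strength over 10 was narrower than 260 bp, and their median width was 468.5 bp (453 to 495). In 4 equal classes of strength, weakest first, the median width was 160, 235, 321 and 471 bp, and the share with a neighbour within 1 kb was 29.5, 38.2, 40.5 and 47.6%. Wider peaks leave less room between them, and how far this bears on the share was not tested.

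**Figure D5:**
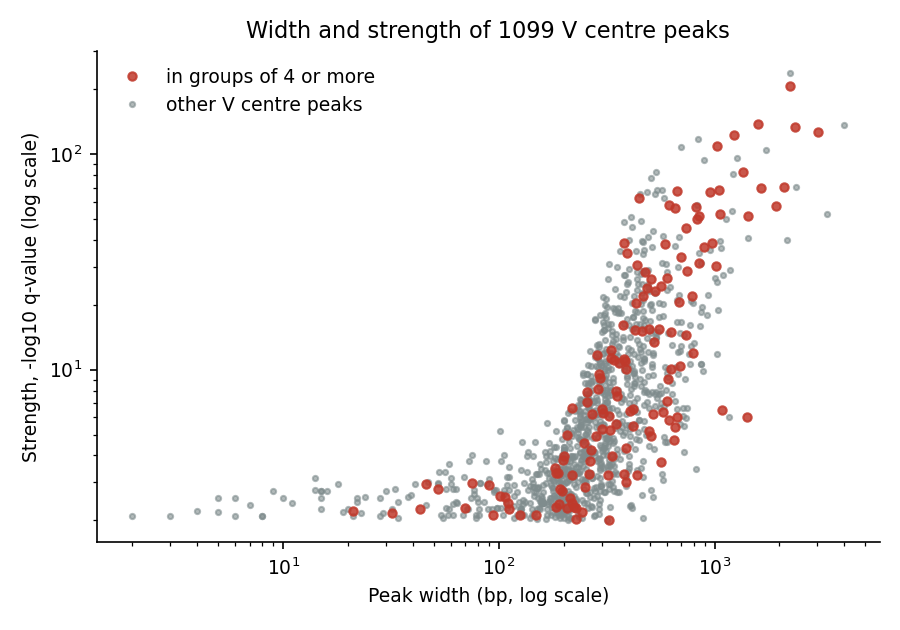
Width in bp against strength (-log10 q-value, authors' deposited table), both on log scales, for the 1099 V centre peaks; red dots are the 138 peaks in groups of 4 or more and grey dots all others. Below 100 bp no dot lies above 4.02, and from about 260 bp strengths run up to 238.

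Along the centre, width and strength followed the density only loosely. Over the 21 full windows of 500 kb the median strength ran from 3.64 to 6.65 and the median width from 232.5 to 334 bp. Spearman's rho with the count of peaks was -0.19 for the median strength and -0.06 for the median width, and 0.57 for the share of peaks narrower than 200 bp. These are descriptions over windows of 1 list. The dense left end differed within itself. Its first window had a median width of 320 bp and 30.9% of peaks over a strength of 10, and its second a median width of 232.5 bp, 16.2% over 10 and 38.2% narrower than 200 bp, the highest such share of the full windows. The thin right stretch was not weak: its median strength was 5.66 (4.04 to 6.69) and 30.0% of its peaks exceeded 10, against 5.07 (4.58 to 5.59) and 27.8% in the 8 Mb before it.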

How the data were processed

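Anti-GFP ChIP DNA and input DNA were sequenced in 2 libraries each. The name of the deposited list says combined, read here as both replicates joined. PeakSeq is named as the caller in the source column and WormBase WS180 as the build, per the file headers; the sources used here give neither the aligner nor versions or filters. The authors deposited 1 q-value per peak, all under 0.01 and all equal to the copy in the attribute column (9533 of 9533). Strength is -log10 of this deposited q-value, and width the last minus the first base plus 1. The labels' protocol speaks of embryos, whereas the stage label is fed L1. The q-value is no read count, so no model per library was fitted.

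Peaks were assigned by midpoint. Borders of the other centres are the published recombination domains; they were entered from memory and no file used here gives them, nor was the genome release behind them checked. Arms run from the border to the outermost peak. Gaps count the bases between neighbours in 1 centre, and peaks chained by gaps of at most 1 kb form a group. Windows start at the left border. Intervals are exact Poisson, exact binomial or, for medians, order statistics, all at 95%. Chromosomes were the units of exact permutation and sign-flip tests; the p-values are printed unadjusted, and none could pass 0.05. After Benjamini-Hochberg adjustment the smallest was 0.385 over 25 label permutations and 0.063 over 7 sign-flip tests. Regions named were the 10 strongest, the 5 widest, all groups of 6 or more, extreme windows, the 5 longest empty stretches and the peaks next to the borders. The members, lists and rules were chosen with earlier results of these data known; the spread of window counts, its tests, the border contrasts and the division into 3 stretches were chosen after the windows had been seen. Density ratios, grouping and merging were first run on simulated data with known answers. Values were computed with numpy 2.4.6, scipy 1.17.1 and pandas 2.3.3 in Python 3.11.15, and drawn with matplotlib 3.10.9.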

Additional observations from a re-analysis of the deposited data

How the results depend on the processing

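Of 79 values under alternatives, 58 stayed inside the interval of the reported value or within 1.5 times it. The density ratio stayed below 1 against the other centres and above 1 against the V arms. Most other values describe the V centre alone and have no direction. Grouping, width and strength were not compared again with other centres or arms under the alternatives. With only peaks of a strength over 5, density was 51.3 peaks per Mb, its ratio to the V arms 1.57 and the densest window 41. The median strength was 10.8, the median width 407 bp and the median gap 8398.5 bp. The share with a neighbour was 30.2% and there were 8 large groups. This cutoff left fewer peaks and dropped the weaker ones, which were mostly narrower, so by itself it raises the medians of strength and width. Merging within 500 bp gave 91.5 peaks per Mb, a median gap of 5382 bp, a share of 25.5% and 8 groups, since close peaks were joined. Gaps of 500 bp or 2 kb gave shares of 19.9% or 55.0% and 9 or 48 groups. With the middle 50% of the span as centre the ratio to the arms was 1.57, and without IV the ratio to the other centres was 0.797. The next alternatives were added after seeing the data: without the first 1 Mb the share with a neighbour was 35.6%, without the part from 9 Mb density was 112.1 and its ratio to the other centres 0.928, and without either end all values stayed inside. The spread of window counts was highest on V in 9 of 9 alternatives, at 23.0 to 35.8% of the mean. It came closest to another centre with the middle 50% of the span, at 25.8% against 21.9% (p = 0.4 in the exact permutation of chromosome labels; the other 8 gave 0.2), and at a strength over 5, at 31.7% against 27.7%. No paired analysis was possible because the list holds no value per library, which also kept any replicate from being left out. Depth is unknown, so weaker sites under the threshold cannot be counted.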

Other observations

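Width at equal strength was similar in the V, IV and I centres and lower in those of III and II. All peaks of the list were put into 20 equally filled classes by strength, and the mean log2 width of its class was subtracted from the log2 width of each peak. This difference averaged 0.12 in the V centre, 0.10 on IV, 0.09 on I, -0.12 on III and -0.20 on II (exact permutation of chromosome labels, p = 0.4, against a smallest possible 0.2). Along the V centre, in segments of 1 Mb, this mean ran from -0.04 ± 0.11 (SE over 31 peaks) in the last 0.653 Mb to 0.33 ± 0.09 (67 peaks) from 6897000 to 7897000, with no plain relation to the count. It was 0.10 ± 0.06 in the fullest segment, of 149 peaks, -0.02 ± 0.07 in the next fullest, of 136, and 0.16 ± 0.12 in that of 59 peaks from 14897000 to 15897000. Each SE counts the peaks of 1 list as independent, and the lowest and highest means are the extremes of all segments. Differences between segments are therefore descriptions.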
